A study of Drosophila melanogaster with 15 samples.

Results

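The study used 2 control genotypes, and this is a comparison of one with the other: the 3 Mef2>whiteRNAi libraries (white RNAi) against the 3 Mef2>+ libraries (no transgene), 6 of the 15 libraries sequenced. The members were chosen by the genotype label alone. Both genotypes carry Mef2-Gal4, a driver active in body wall and visceral muscle and in a few brain cells, so a UAS transgene is expressed in those cells. White RNAi larvae also carry a UAS hairpin against w, the eye pigment transporter gene white. Mef2>+ larvae have the w1118 chromosomes in its place. RNA came from filleted larvae, that is, the body wall muscles with the epidermis attached to them, and other tissue can remain on a fillet. The age and sex of the larvae used for RNA, and whether the 3 biological replicates of a genotype came from separate cultures, are not given in the sources used here, so p-values measure the spread between these samples, which may in part be technical. The other 9 libraries came from Mef2>Deaf1RNAi, Mef2>Deaf1 and the libraries labelled Mef2>Gsk3CA, and served here to estimate the spread and as values side by side.

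Larval muscle is built of sarcomeres, in which myosin thick filaments slide along actin thin filaments, and it is fed by glycolysis and by the citric acid cycle in mitochondria. The epidermis that overlies the muscle secretes a cuticle of chitin and of cuticle proteins, and swaps one set of these proteins for another between instars and toward pupariation. Those transitions are timed by ecdysone, a steroid made in the prothoracic gland from cholesterol by a chain of enzymes named after the Halloween mutants, and by juvenile hormone from the corpora allata. Both glands sit in the ring gland, close to the brain.

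The deposited counts on genes ran from 20199551 to 32756446 per white RNAi library and from 16186361 to 21438118 per Mef2>+ library. Levels are given as CPM, counts scaled to a common effective library size, in the order replicate 1, 2 and 3. Across genes, the log2 CPM of white RNAi replicates correlated at 0.971 to 0.977 (Pearson). Within Mef2>+ the value was 0.992 between replicates 1 and 2, against 0.945 and 0.932 between each of these and replicate 3, so Mef2>+ replicate 3 stood apart. Of all entries in the files, 5.30 to 5.88% lay on no gene in white RNAi larvae, against 3.36 to 3.87% in Mef2>+ larvae. Entries aligned to several places made up 3.55 to 4.55% in white RNAi larvae and 2.53 to 2.60% in Mef2>+ larvae. Entries shared by overlapping genes were 1.74 to 1.98% in white RNAi larvae, against 2.72 to 2.91% in Mef2>+ larvae. These 3 shares therefore separated the genotypes with no overlap, and their part in the differences below was not tested. The lane of each library is not given, so lane and genotype cannot be told apart.

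The gene w was the check on the labels. It was at 14.6, 14.9 and 10.5 CPM in white RNAi larvae, against 40.5, 35.8 and 35.6 CPM in Mef2>+ larvae. All 3 white RNAi libraries were below all 3 Mef2>+ libraries. It changed by −1.48 on the log2 scale (SE 0.19, adjusted p = 0.00099). The 2 genotypes came from crosses to different stocks, and the part of the hairpin in this difference was not tested. All adjusted p-values come from the quasi-likelihood test of edgeR, adjusted over all genes tested, and SE is the standard error of the log2 fold change. An exact permutation test of the CPM of w, two-sided, gave p = 0.1, which is the lowest value possible with 3 and 3 libraries. Hairpin stocks of this collection are commonly kept in a background marked by alleles of y, v, sc and sev. The proneural gene sc was at 4.19, 3.26 and 3.99 CPM in white RNAi larvae, against 0.563, 0.405 and 1.66 CPM in Mef2>+ larvae. It was higher in white RNAi larvae (log2 fold change 2.11, adjusted p = 0.017), though both levels are low and the call was lost without white RNAi replicate 1, or without Mef2>+ replicate 1 or 2. The pigment gene v was at 4.28, 2.98 and 1.83 CPM in white RNAi larvae, against 1.18, 1.01 and 1.22 CPM in Mef2>+ larvae, without overlap but short of the threshold (log2 fold change 1.41, adjusted p = 0.091). The body colour gene y had 27 counts over the white RNAi libraries and 2 over the Mef2>+ libraries, 9.01-fold higher with a counting interval of 2.26 to 78.2 (95% exact binomial, counting error only), and did not pass either (adjusted p = 0.074). The receptor gene sev, the muscle factor gene Mef2 after which the driver is named, and Deaf1, the transcription factor that the study went on to alter, had log2 fold changes of 0.36, 0.51 and 0.26 and did not pass (adjusted p = 0.255, 0.384 and 0.088).

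The 2 controls differed at many genes. Of 10930 genes tested, 1799 passed an adjusted p of 0.05 (16.5%). Of these, 689 were higher in white RNAi larvae (6.3% of genes tested) and 1110 were lower (10.2%). Of the 1799 genes, 239 changed by 2 or more log2 units, 131 upward and 108 downward. The 3 and 3 libraries did not overlap at 33.3% of all genes tested. A gene near 0 in every library of a control could pass the filter on expression only through libraries of another genotype. The direction of such a call is therefore not independent of the filter, in any of the classes below. The median log2 fold change of all genes tested was -0.018. When library totals replaced the TMM factors, that median moved to 0.146 and the split turned to 2043 genes higher and 555 lower, so which direction holds more genes depends on the scaling, and the class results below are read relative to that median. With only the 6 compared libraries in the fit the count was 665 genes, and leaving out 1 library gave 818 without white RNAi replicate 1, 1017 without white RNAi replicate 2, 918 without Mef2>+ replicate 1, 1197 without Mef2>+ replicate 2, 1216 without Mef2>+ replicate 3 and 2062 without white RNAi replicate 3.

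**Figure D1:**
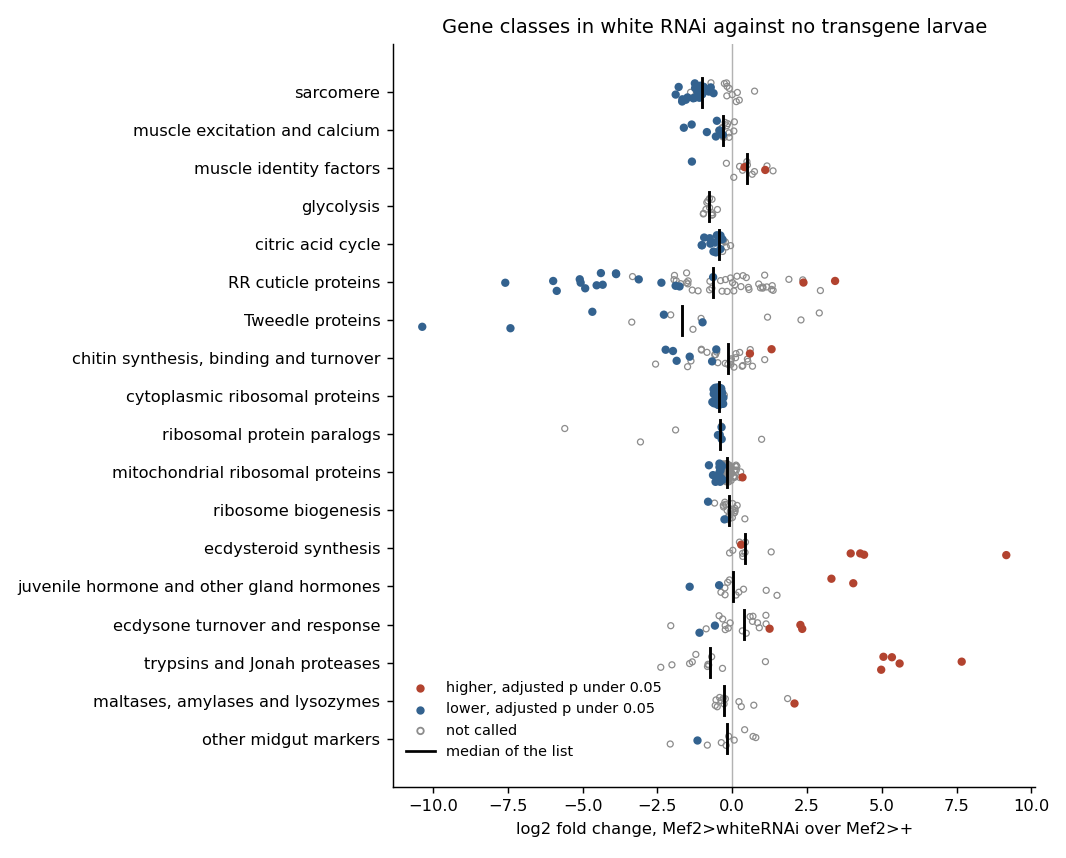
Fitted log2 fold change (x axis, Mef2>whiteRNAi over Mef2>+, 3 libraries each) of every tested member of 18 gene lists (rows). Filled points passed an adjusted p of 0.05, open points did not, and black bars mark the median of each list. The cytoplasmic ribosomal proteins form a tight cluster between -0.66 and -0.26, while cuticle, gland and protease genes spread over far larger changes in both directions.

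The 5 classes compared were muscle, cuticle, ribosome, hormone synthesis and gut. In the muscle class 44 of 97 tested genes passed, 2 higher and 42 lower in white RNAi larvae. In the cuticle class 31 of 105 passed, 4 higher and 27 lower. In the ribosome class 101 of 185 passed, 1 higher and 100 lower. Calls in these 3 classes were therefore nearly all downward. In the hormone synthesis class 9 of 27 passed, 7 higher and 2 lower. In the gut class 7 of 39 passed, 6 higher and 1 lower, a share of 17.9% beside the 16.5% of all genes tested. The shares of the other classes were 45.4% for muscle, 29.5% for cuticle, 54.6% for ribosome and 33.3% for hormone synthesis. Called genes were spread over the chromosome arms, with 14.1% of tested genes called on the X and 16.3 to 17.4% on each large autosomal arm.

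Sarcomere genes were lower in white RNAi larvae. Of 35 tested, 21 fell and 0 rose, with a median log2 fold change of -1.0 beside -0.018 for all genes tested. At an unadjusted p of 0.05 the counts were 24 lower and 2 higher, and DESeq2 and limma voom also called 0 members higher. With library totals as the scaling, 3 members were called higher and 17 lower. The summed level of the list was 30021, 45753 and 68323 CPM in white RNAi larvae, against 102425, 96359 and 136589 CPM in Mef2>+ larvae. Every white RNAi library was below every Mef2>+ library, but the spread within each genotype was wide. Among white RNAi libraries replicate 1 was the lowest at 30 of 35 genes and replicate 3 the highest at 26. In Mef2>+ replicate 3 was the highest at 28 of 35 genes. The count of sarcomere calls accordingly depended on single libraries, with 12 without white RNAi replicate 1, 10 without white RNAi replicate 2, 12 without Mef2>+ replicate 3 and 1 with only the 6 compared libraries in the fit. In bulk RNA, fewer cells of a type and less RNA per cell cannot be told apart.

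Mhc, the only muscle myosin heavy chain gene of the fly, fell most in the list. Its level was 1271, 2543 and 5285 CPM in white RNAi larvae, against 9247, 8404 and 16083 CPM in Mef2>+ larvae. The genotypes did not overlap, with white RNAi replicate 3 the closest to the Mef2>+ libraries. The log2 fold change was −1.89 (SE 0.45, adjusted p = 0.014), and the call was lost without white RNAi replicate 2, or without Mef2>+ replicate 3. Act57B, a larval muscle actin, was at 2751, 4298 and 7696 CPM in white RNAi larvae, against 15483, 14362 and 21133 CPM in Mef2>+ larvae. Its fall was −1.79 on the log2 scale (SE 0.32, adjusted p = 0.0044) and passed in each fit that left out 1 library. The M-line protein gene Unc-89 (obscurin) was at 80.1, 133 and 272 CPM in white RNAi larvae, against 419.6, 365 and 763 CPM in Mef2>+ larvae. It showed the same order of libraries, with a log2 fold change of −1.67 (adjusted p = 0.019). Mlc2, the regulatory light chain of myosin and one of the most abundant members, was at 2045, 3964 and 7768 CPM in white RNAi larvae, against 11237, 10240.2 and 17389.8 CPM in Mef2>+ larvae, a log2 fold change of −1.50 (adjusted p = 0.029). Calls on Unc-89 and Mlc2 were lost without white RNAi replicate 1 or 2, or without Mef2>+ replicate 3, and that on Mlc2 also without Mef2>+ replicate 1.

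Genes of muscle excitation and calcium handling showed 7 of 19 tested members lower and 0 higher, with a median of -0.31. In this list, in the citric acid cycle and in the ribosomal protein and paralog lists described below, 0 members were higher at an unadjusted p of 0.05 too, and likewise with DESeq2 and limma voom. The ryanodine receptor gene Rya-r44F, which releases calcium from the sarcoplasmic reticulum, was at 39.8, 64.8 and 132 CPM in white RNAi larvae, against 215, 195 and 315 CPM in Mef2>+ larvae (log2 fold change −1.62, adjusted p = 0.008). Ca-P60A (SERCA), the pump that returns this calcium, was at 506, 721 and 1063 CPM in white RNAi larvae, against 1660.4, 1501 and 2694 CPM in Mef2>+ larvae (log2 fold change −1.35, adjusted p = 0.0051). Both genes were lower in every white RNAi library and kept the call in each fit that left out 1 library. Exons of Ca-P60A overlap CG2812 on the opposite strand in the BDGP6 annotation, so its counts may hold reads of both. Calmodulin (Cam), the calcium sensor, was at 292, 279 and 355 CPM in white RNAi larvae, against 562, 514 and 589.6 CPM in Mef2>+ larvae (log2 fold change −0.85, adjusted p = 0.013), and its call was lost without white RNAi replicate 1 or 2. The list count was 2 without white RNAi replicate 1 or 2, 3 without Mef2>+ replicate 1, 4 without Mef2>+ replicate 2 or 3, and 4 with library totals as the scaling, where 1 other member was called higher.

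Genes of energy metabolism were also lower. In the citric acid cycle 13 of 18 tested genes fell and 0 rose, and all 18 fitted fold changes were below 0 (median -0.45). The count was 8 with library totals as the scaling and 3 with only the 6 compared libraries. The summed level was 3063, 3403 and 3650.2 CPM in white RNAi larvae and 4430.1, 4367 and 4828 CPM in Mef2>+ larvae, with no overlap. Mdh2, the mitochondrial malate dehydrogenase, was at 98.6, 124 and 166 CPM in white RNAi larvae, against 240.0, 222 and 328 CPM in Mef2>+ larvae (log2 fold change −1.02, adjusted p = 0.0039). The isocitrate dehydrogenase subunit gene l(1)G0156 changed by −1.01 on the log2 scale (adjusted p = 0.0029) and kdn, the citrate synthase, by −0.94 (adjusted p = 0.0065), and these 3 calls held in each fit that left out 1 library. The 2 most abundant members did not pass: Nc73EF, a subunit of oxoglutarate dehydrogenase, had a log2 fold change of −0.19 and the cytoplasmic enzyme gene Mdh1 one of −0.30. Of 12 glycolysis genes 0 passed, although all 12 fitted fold changes were below 0 (median -0.76). At an unadjusted p of 0.05, 7 were lower, DESeq2 called 5 and limma voom 1. Gapdh1, a glyceraldehyde-3-phosphate dehydrogenase, was at 1108, 1729.6 and 2689 CPM in white RNAi larvae, against 3061, 2912 and 4756 CPM in Mef2>+ larvae. Its libraries did not overlap between genotypes, but the log2 fold change of −0.96 had an SE of 0.31 (adjusted p = 0.055). Leaving out white RNAi replicate 3 turned the count of glycolysis calls to 10 of 12, all lower, since that library was the highest white RNAi library at all 12 genes.

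The list of muscle identity factors as a whole did not move as the sarcomere list did, although its member nau fell. Of 13 tested, 2 rose, 1 fell, and 11 fitted fold changes were above 0 (median 0.49). The cofactor gene exd was at 185, 214 and 203 CPM in white RNAi larvae, against 162, 157 and 134 CPM in Mef2>+ larvae (log2 fold change 0.41, adjusted p = 0.0094). The selector gene ap, used in some muscles and in the wing disc, rose too (log2 fold change 1.10, adjusted p = 0.041). Both ap and vg are also members of the imaginal disc list, so the call on ap is counted in both lists. The myogenic factor nau, at 0.791, 1.11 and 2.04 CPM in white RNAi larvae, against 3.53, 4.25 and 2.27 CPM in Mef2>+ larvae, fell (log2 fold change −1.35, adjusted p = 0.019). The call on exd was lost without white RNAi replicate 2, that on ap without white RNAi replicate 1, 2 or 3, or without Mef2>+ replicate 1 or 2, and that on nau without white RNAi replicate 1 or 2, or without Mef2>+ replicate 1 or 2.

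**Figure D2:**
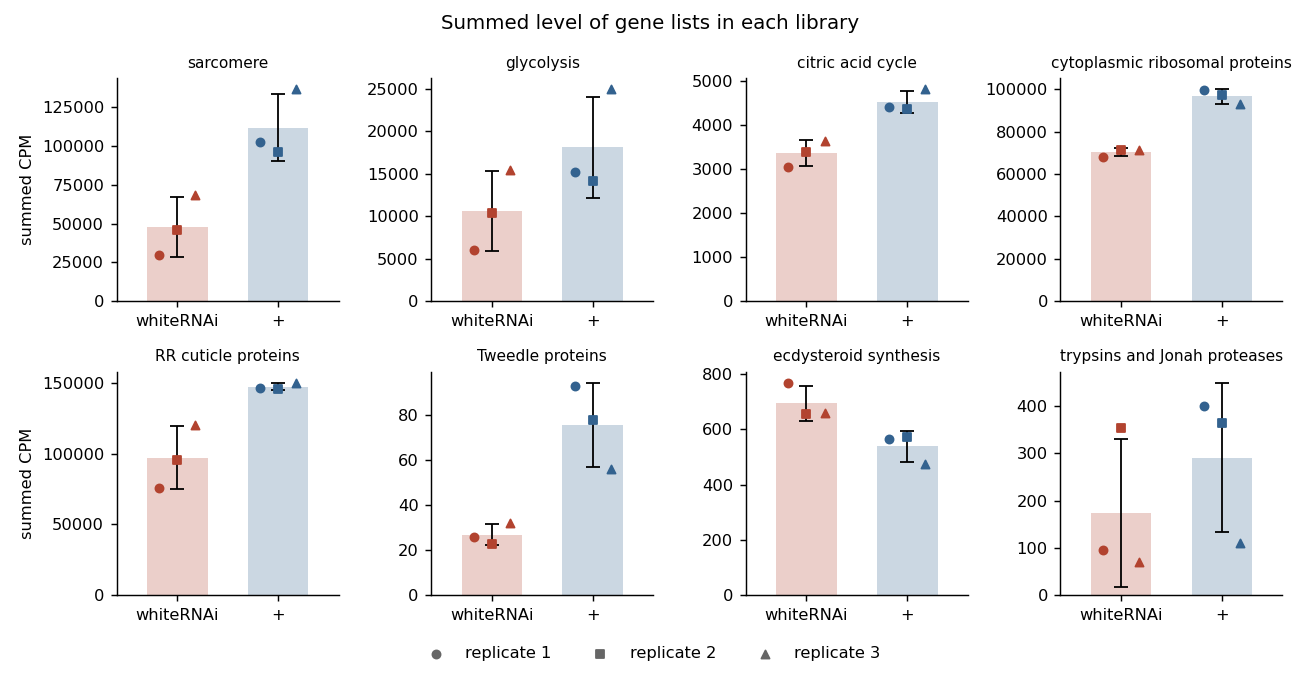
Summed CPM (y axis, from 0) of all genes of 8 lists in Mef2>whiteRNAi (left, red) and Mef2>+ (right, blue) larvae. Points are libraries with a marker for each replicate number, bars are means and error bars are SD (n = 3). The sums did not overlap for sarcomere, citric acid cycle, ribosomal, cuticle, Tweedle and ecdysteroid genes, and overlapped for glycolysis and for the digestive proteases.

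Cytoplasmic ribosomal protein genes showed the most uniform difference. Of 80 tested, 79 fell in white RNAi larvae and 0 rose, all 80 were lower in each white RNAi library than in each Mef2>+ library, and the fitted log2 fold changes ran from -0.66 to -0.26 (median -0.46). The summed level was 67969, 71288 and 71212 CPM in white RNAi larvae, against 99504, 97411 and 92761 CPM in Mef2>+ larvae. The gap between the genotypes was wider than the range within either of them. Side by side, the sums of the other 9 libraries ran from 71392 to 86728 CPM and so lay between those of the 2 controls. The number called was 57 to 77 on leaving out 1 library, 46 with only the 6 compared libraries and 66, again all lower, with library totals in place of TMM factors.

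RpL22 fell most, at 268, 218 and 183 CPM in white RNAi larvae, against 403, 319 and 339 CPM in Mef2>+ larvae (log2 fold change −0.66, adjusted p = 0.012). RpL26 was at 688, 720.5 and 729.6 CPM in white RNAi larvae, against 1123, 1102 and 1071 CPM in Mef2>+ larvae (log2 fold change −0.62, SE 0.08, adjusted p = 0.0012). The small subunit protein gene sta was at 1068, 1083 and 1138 CPM in white RNAi larvae, against 1709, 1663 and 1678 CPM in Mef2>+ larvae (log2 fold change −0.62, adjusted p = 0.0017). In both of these the white RNAi libraries lay close together and so did the Mef2>+ libraries. The most abundant members, RpL5 and RpS3A, changed by −0.43 and −0.37 on the log2 scale (adjusted p = 0.011 and 0.019). RpS14a, the member that did not pass, had a log2 fold change of −0.26 (adjusted p = 0.079); it has a near-identical neighbour, RpS14b, so its counts rest on the reads that could be placed.

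In the neighbouring ribosomal lists smaller shares passed. Of 9 tested ribosomal protein paralogs, 4 fell and 0 rose (median -0.42, close to the -0.46 of the cytoplasmic ribosomal proteins): RpL24-like (log2 fold change −0.48), a factor of large subunit assembly, RpS15Ab (−0.42), RpLP0-like (−0.36) and RpL34a (−0.35). This count was 2 without white RNAi replicate 1 or 2 or Mef2>+ replicate 2, 1 with library totals as the scaling and 1 with only the 6 compared libraries. Of 73 mitochondrial ribosomal protein genes 15 fell and 1 rose (median -0.18), and the count of lower genes was 6 without white RNAi replicate 1, 7 without white RNAi replicate 2 or Mef2>+ replicate 1, 8 without Mef2>+ replicate 3 and 2 with library totals as the scaling. The largest falls were in mRpS31 at 5.72, 5.63 and 6.36 CPM in white RNAi larvae, against 11.3, 8.64 and 10.4 CPM in Mef2>+ larvae (log2 fold change −0.78, adjusted p = 0.0038), mRpL18 (−0.64) and mRpS21 (−0.56), while mRpL39 rose by 0.34 on the log2 scale (adjusted p = 0.005). Several of these genes, mRpS31, mRpL18, mRpS21 and mRpL39 among them, overlap a neighbour on the opposite strand. Ribosome biogenesis genes stood near the background, with 2 of 23 lower and 0 higher (7 and 1 at an unadjusted p of 0.05, and 0 higher with DESeq2 and limma voom). With library totals as the scaling the split turned to 2 higher and 1 lower. One of the 2 was CG8801, which encodes a nucleolar GTPase and was at 439, 486 and 483 CPM in white RNAi larvae, against 834, 839.8 and 791 CPM in Mef2>+ larvae (log2 fold change −0.81, adjusted p = 0.00074). The other was ns2 (log2 fold change −0.26, adjusted p = 0.042). The abundant helicase gene bel had a log2 fold change of 0.17 and did not pass.

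Gene length moved with this result. In 5 groups of equal size by exon length, the genes other than cytoplasmic ribosomal proteins had median log2 fold changes of -0.20 (shortest), -0.09, -0.03, 0.06 and 0.10 (longest). Of the 79 ribosomal protein genes with a length, 50 were in the shortest group and 26 in the next. The ribosomal median of -0.46 was below that of either. Among 131 other genes in the range of abundance that holds the middle 80% of the ribosomal genes (average log2 CPM 9.18 to 10.53), 20.6% were called lower and the median was -0.04. Of these, 14 were in the shortest group, with a median of -0.17. The part of length in the ribosomal difference was not tested further.

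**Figure D3:**
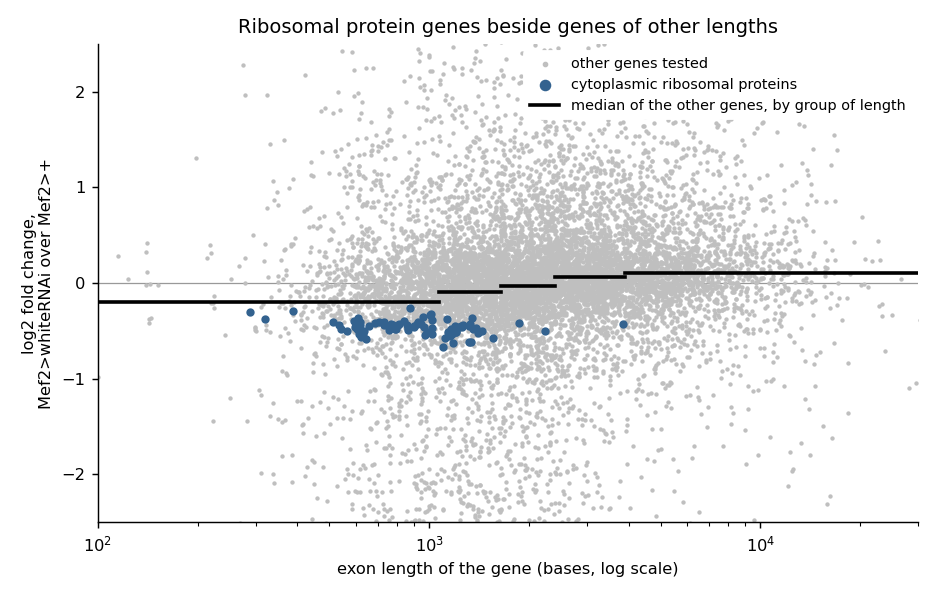
Log2 fold change (y axis, Mef2>whiteRNAi over Mef2>+) against exon length (x axis, bases, log scale) for the genes tested, with cytoplasmic ribosomal proteins in blue. Black bars are medians of the other genes by group of length, from -0.20 to 0.10, and points beyond a log2 fold change of 2.5 in size are not drawn. The ribosomal genes lie below the bar of their own length.

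Cuticle genes held some of the largest differences. Among the RR cuticle proteins, which carry the Rebers-Riddiford chitin-binding sequence, 58 of 100 were expressed enough to be tested, 16 fell and 2 rose (median -0.66). The summed level was 75775, 95613 and 120142 CPM in white RNAi larvae, against 146301, 145399.8 and 149996 CPM in Mef2>+ larvae. Of the abundant larval cuticle proteins, Lcp3 was at 4472, 5735 and 17317 CPM in white RNAi larvae, against 45773, 42831 and 53403 CPM in Mef2>+ larvae. It was lower in each white RNAi library, most in replicates 1 and 2 (log2 fold change −2.37, SE 0.48, adjusted p = 0.0072). Its neighbour Lcp1 was at 23774, 33180.2 and 39869 CPM in white RNAi larvae, against 35667, 36737 and 36639 CPM in Mef2>+ larvae, with overlap (log2 fold change −0.17, adjusted p = 0.546). The fall in the summed level was therefore not shared by all the abundant members.

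Other RR genes were close to off in white RNAi larvae. Cpr47Eg was at 0.884, 0.523 and 0.285 CPM in white RNAi larvae, against 131, 127 and 63.1 CPM in Mef2>+ larvae (log2 fold change −7.58, SE 1.63, adjusted p = 0.0094). Lcp65Ag1 was at 2.51, 3.69 and 4.07 CPM in white RNAi larvae, against 273, 251 and 130.5 CPM in Mef2>+ larvae (log2 fold change −5.98, adjusted p = 0.0087). Lcp65Ag3 was at 0.884, 1.66 and 1.71 CPM in white RNAi larvae, against 103, 98.3 and 50.6 CPM in Mef2>+ larvae (log2 fold change −5.87, adjusted p = 0.0074). In all 3 the Mef2>+ libraries were high together, with replicate 3 the lowest of them, and each call held in every fit that left out 1 library. Lcp65Ag1 and Lcp65Ag3 belong to a cluster of near-identical copies, so reads that fit more than one copy are not in their counts. The 2 RR genes that rose were Cpr47Ee, at 6.7, 3.69 and 0.611 CPM in white RNAi larvae, against 0.563, 0.202 and 0.221 CPM in Mef2>+ larvae (log2 fold change 3.44, adjusted p = 0.011), and Cpr66Cb, at 19.6, 14.6 and 5.95 CPM in white RNAi larvae, against 2.71, 3.17 and 1.83 CPM in Mef2>+ larvae (log2 fold change 2.38, adjusted p = 0.012). In both, white RNAi replicate 1 was the highest, and both calls were lost without it. Leaving out that library also lowered the count of falling RR genes to 10, and limma voom called 8 lower.

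The Tweedle proteins, a second family of cuticle structural proteins, showed 5 of 12 tested members lower and 0 higher (median -1.68), where at an unadjusted p of 0.05 there were 6 lower and 3 higher, and DESeq2 called 3 higher, library totals as the scaling gave 2 higher and limma voom 0. TwdlP was at 0.047, 0 and 0 CPM in white RNAi larvae, against 32.9, 27.1 and 12.6 CPM in Mef2>+ larvae. A single count over the 3 white RNAi libraries stood against 1272 over the Mef2>+ libraries, which is 1910-fold lower with a counting interval of 341 to 75300 (adjusted p = 0.0026). TwdlO was at 0.093, 0.123 and 0.041 CPM in white RNAi larvae, against 22.7, 19.4 and 5.81 CPM in Mef2>+ larvae (log2 fold change −7.41, adjusted p = 0.0095). TwdlP and TwdlO were near 0 in every white RNAi library, so their direction is not independent of the filter. TwdlG, the most abundant after TwdlP, was at 1.81, 2.34 and 5.21 CPM in white RNAi larvae, against 16.5, 12.6 and 16.6 CPM in Mef2>+ larvae (log2 fold change −2.28, adjusted p = 0.003). These genes were low in each white RNAi library, and TwdlL and TwdlU fell as well (log2 fold change −4.67 and −0.99, adjusted p = 0.017 and 0.028). The calls on these last members were lost without white RNAi replicate 1 or 2, among others, and the list count was 3 without white RNAi replicate 1 or 2 or Mef2>+ replicate 1.

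Genes of chitin synthesis, binding and turnover moved in both directions, with 6 of 35 lower, 2 higher and a median of -0.15 that turned to 0.02 with library totals as the scaling. Cht6, a chitinase, was at 65.9, 68.2 and 124 CPM in white RNAi larvae, against 329, 282 and 596 CPM in Mef2>+ larvae (log2 fold change −2.23, adjusted p = 0.01). The chitin-binding protein gene obst-E, which shapes the larval and pupal body, was at 81.2, 86.1 and 249 CPM in white RNAi larvae, against 430.4, 383 and 827 CPM in Mef2>+ larvae (log2 fold change −1.98, adjusted p = 0.026). The chitin deacetylase gene verm changed by −1.86 on the log2 scale (adjusted p = 0.023). The 2 that rose were the imaginal disc growth factors Idgf1, at 27.5, 27.5 and 17.4 CPM in white RNAi larvae, against 11.6, 10.7 and 6.87 CPM in Mef2>+ larvae (log2 fold change 1.31, adjusted p = 0.0089), and Idgf3 (0.59, adjusted p = 0.0093), secreted relatives of chitinases that do not digest chitin. The most abundant members, Cht3 and Idgf4, had log2 fold changes of −0.03 and 0.25 and did not pass. The list count of lower genes was 0 without white RNAi replicate 1, 1 without white RNAi replicate 2, 2 without Mef2>+ replicate 3, 3 without Mef2>+ replicate 1 and 4 without Mef2>+ replicate 2.

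Ecdysteroid synthesis genes were higher in white RNAi larvae. Of 13 tested genes 5 were higher in white RNAi larvae and 0 lower (7 and 0 at an unadjusted p of 0.05, and 0 lower with DESeq2 and limma voom), with a median of 0.43 over the list. The cytochrome P450 gene spok (spookier), which acts early in the pathway in larvae, was at 35.6, 11.9 and 27.9 CPM in white RNAi larvae, against 0, 0.067 and 0.055 CPM in Mef2>+ larvae. It had 1837 counts over the white RNAi libraries and 2 over the Mef2>+ libraries, 613-fold higher with a counting interval of 169 to 5070 (adjusted p = 0.015). The call was lost on leaving out any Mef2>+ library and with limma voom. Since spok was near 0 in every Mef2>+ library, its direction is not independent of the filter. The P450 gene sad, which acts at the end of the chain in the gland, was at 32.5, 12.5 and 24 CPM in white RNAi larvae, against 1.43, 1.69 and 0.443 CPM in Mef2>+ larvae (log2 fold change 4.28, SE 0.76, adjusted p = 0.004) and held in each fit that left out 1 library.

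The P450 gene phm was at 34.8, 11.4 and 19.5 CPM in white RNAi larvae, against 2.3, 1.62 and 0.277 CPM in Mef2>+ larvae (log2 fold change 3.96, SE 1.19, adjusted p = 0.041). The P450 gene dib was at 3.39, 0.215 and 2.77 CPM in white RNAi larvae, against 0.102, 0.067 and 0.111 CPM in Mef2>+ larvae (log2 fold change 4.41, adjusted p = 0.032). In all 4 genes white RNAi replicates 1 and 3 were high and replicate 2 lower, and in dib replicate 2 was close to the Mef2>+ libraries. The call on phm was lost on leaving out any of the 6 libraries, and that on dib without white RNAi replicate 1 or 3, or without Mef2>+ replicate 1, 2 or 3. The remaining call was Npc1a, a sterol transport gene used in many tissues, at 198, 184 and 175 CPM in white RNAi larvae, against 161, 164 and 129 CPM in Mef2>+ larvae (log2 fold change 0.30, adjusted p = 0.045). The first enzyme of the chain, nvd, was at 4.79, 1.57 and 4.24 CPM in white RNAi larvae, against 1.84, 1.55 and 0.886 CPM in Mef2>+ larvae with overlap (log2 fold change 1.30, adjusted p = 0.122), and woc, a zinc finger gene required for the pathway, had a log2 fold change of 0.02. The list count was 1 with limma voom, 1 without Mef2>+ replicate 1 or 3, 2 without Mef2>+ replicate 2 or white RNAi replicate 1, and 3 without white RNAi replicate 2 or 3.

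Some genes of neurons, picked after their values were seen, varied with the same libraries within white RNAi larvae, but not within Mef2>+ larvae. The presynaptic gene brp was at 23.1, 1.35 and 17.9 CPM in white RNAi larvae, against 3.63, 3.51 and 10.5 CPM in Mef2>+ larvae, and the neuronal factor onecut was at 9.53, 1.23 and 10.2 CPM in white RNAi larvae, against 1.38, 1.35 and 3.38 CPM in Mef2>+ larvae. In both, white RNAi replicates 1 and 3 were high while replicate 2 was at or below the Mef2>+ level, the order seen for spok, phm, sad and dib. Within Mef2>+ larvae the order differed, since replicate 3 was the highest for brp and onecut and the lowest for phm and sad. The synaptotagmin gene Syt1 was at 30.3, 18.8 and 22.9 CPM in white RNAi larvae, against 8.85, 8.3 and 15.4 CPM in Mef2>+ larvae, without overlap (log2 fold change 1.14, adjusted p = 0.073), and Csp was level between genotypes (log2 fold change −0.06). In the neuron list 0 of 13 genes passed (2 higher at an unadjusted p of 0.05, 1 with DESeq2 and 0 with limma voom). Fitted fold changes were above 0 at 9 of the 13 and below 0 at 4, and 1 gene did not overlap between genotypes. The summed level was 285, 167 and 266 CPM in white RNAi larvae, against 189.8, 184 and 229 CPM in Mef2>+ larvae, so the picked genes do not stand for the list. In white RNAi replicate 2, spok, phm, sad and dib were above all 3 Mef2>+ libraries, dib by little, and nvd was below Mef2>+ replicate 1. Side by side in the other 9 libraries, spok exceeded 1 CPM in Mef2>Deaf1 replicate 2 alone, where it was at 21.7 CPM with phm at 21.6 CPM, sad at 19.1 CPM and brp at 15.9 CPM, and it was no higher than 0.235 CPM in the remaining 8. The part of neural tissue in these levels was not tested.

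**Figure D4:**
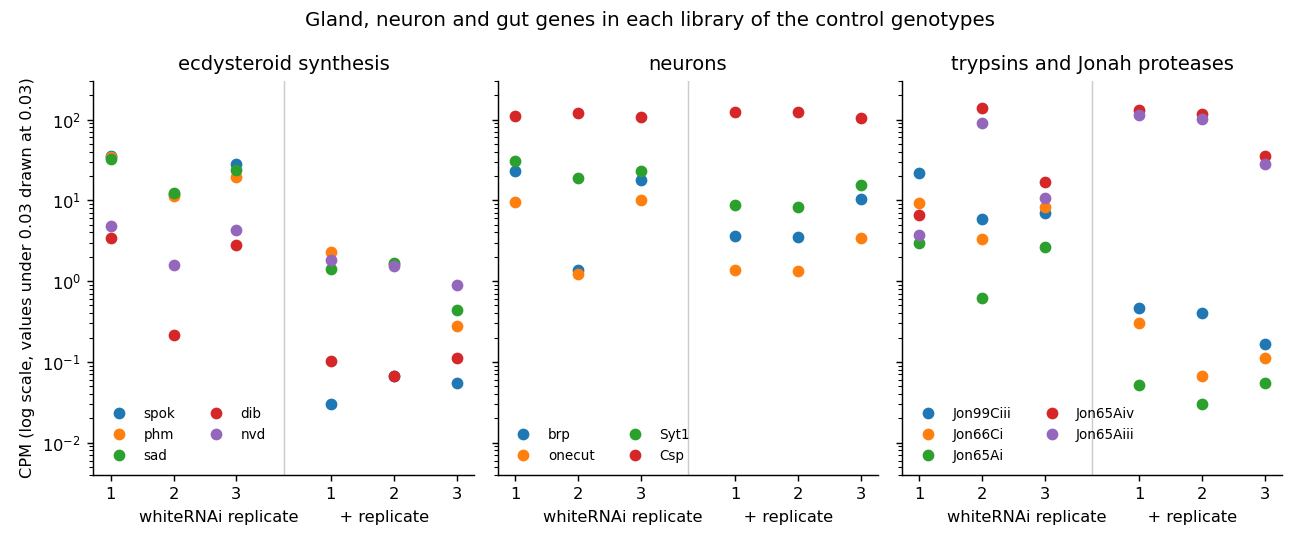
CPM (y axis, log scale, values under 0.03 drawn at 0.03) of ecdysteroid synthesis, neuron and digestive protease genes in each replicate (x axis) of Mef2>whiteRNAi (left of the line) and Mef2>+ (right). The spok points lie at 11.9 CPM or more in white RNAi and at 0.0675 CPM or less in Mef2>+, and brp drops to 1.35 CPM in white RNAi replicate 2.

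Juvenile hormone and other gland hormone genes moved in both directions, with 2 of 14 higher and 2 lower (4 and 1 with library totals as the scaling). The genes that rose were jhamt, the last enzyme of juvenile hormone synthesis, and Jhe, the esterase that degrades the hormone. Levels of jhamt were 1.44, 0.215 and 0.53 CPM in white RNAi larvae, against 0.051, 0.067 and 0 CPM in Mef2>+ larvae, that is 51 counts against 2, 17.0-fold higher with a counting interval of 4.48 to 144 (adjusted p = 0.027). Jhe was at 1.21, 0.892 and 0.856 CPM in white RNAi larvae, against 0.153, 0.067 and 0.055 CPM in Mef2>+ larvae (log2 fold change 3.32, adjusted p = 0.0087). Both were close to the limit of detection even where they were higher. Being near 0 in every Mef2>+ library, they too have a direction that is not independent of the filter. The epoxide hydrolase gene Jheh3 was at 10.3, 11.2 and 17.1 CPM in white RNAi larvae, against 29.5, 33.5 and 40.4 CPM in Mef2>+ larvae (log2 fold change −1.42, adjusted p = 0.0038) and the hormone receptor gene gce at 27.3, 38.4 and 43.2 CPM in white RNAi larvae, against 49.7, 49.4 and 48.5 CPM in Mef2>+ larvae (log2 fold change −0.44, adjusted p = 0.038), both lower in each white RNAi library. The calls on jhamt and gce were lost without white RNAi replicate 1 or any 1 of the Mef2>+ libraries, and that on gce also without white RNAi replicate 2. Kr-h1, a direct target of the receptor, had a log2 fold change of 0.38 and did not pass (adjusted p = 0.377).

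Among genes of ecdysone turnover and response, 3 of 22 rose and 2 fell (median 0.40). With library totals as the scaling the counts were 5 higher and 0 lower, and with only the 6 compared libraries 3 and 0, so both falls depended on the fit. ImpE2, named as an ecdysone-inducible gene of imaginal discs, was at 285, 273 and 282 CPM in white RNAi larvae, against 59.3, 54 and 52.4 CPM in Mef2>+ larvae (log2 fold change 2.34, SE 0.39, adjusted p = 0.0031). ImpE1, of the same origin, was at 93.8, 60 and 79.8 CPM in white RNAi larvae, against 17.1, 17.8 and 13.2 CPM in Mef2>+ larvae (log2 fold change 2.28, adjusted p = 0.0073). Both genes separated the genotypes without overlap and held in every fit that left out 1 library. The spread of ImpE2 within either genotype was small, while ImpE1 varied more among the white RNAi libraries, with replicate 2 the lowest. The repressor gene Blimp-1 was at 17.5, 18.8 and 17 CPM in white RNAi larvae, against 8.13, 8.84 and 5.48 CPM in Mef2>+ larvae (log2 fold change 1.25, adjusted p = 0.018). Cyp18a1, the P450 that inactivates ecdysone, was at 39.2, 74.2 and 42.8 CPM in white RNAi larvae, against 121, 109.7 and 103 CPM in Mef2>+ larvae (log2 fold change −1.09, adjusted p = 0.049, lost without white RNAi replicate 1 or 3, or without Mef2>+ replicate 1, 2 or 3). ImpL2, whose product binds insulin-like peptides, was at 557, 564 and 796 CPM in white RNAi larvae, against 988, 1006 and 869 CPM in Mef2>+ larvae (log2 fold change −0.58, adjusted p = 0.016). The calls on Blimp-1 and ImpL2 were lost without white RNAi replicate 1 or 2 or Mef2>+ replicate 1, that on Blimp-1 also without Mef2>+ replicate 3 and that on ImpL2 without Mef2>+ replicate 2. The early response gene br, the most abundant of the list, was at 1896, 2132 and 1686 CPM in white RNAi larvae, against 1285, 1477 and 773 CPM in Mef2>+ larvae and did not pass (log2 fold change 0.69, adjusted p = 0.139).

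Among gut genes, the abundant proteases followed single libraries, and the proteases called higher were scarce and near 0 in Mef2>+ larvae. Genes near 0 in Mef2>+ larvae could pass the filter only through libraries of another genotype. The direction of these calls is therefore not independent of the filter. Of 16 tested trypsins and Jonah proteases 5 rose and 0 fell (5 and 1 at an unadjusted p of 0.05, with 1 lower in DESeq2 and 0 in limma voom), while the median of the list was -0.74. Jon99Ciii was at 21.9, 5.94 and 6.97 CPM in white RNAi larvae, against 0.46, 0.405 and 0.166 CPM in Mef2>+ larvae (log2 fold change 5.05, adjusted p = 0.0013). Its near-identical neighbour Jon99Cii was at 26.9, 7.26 and 8.07 CPM in white RNAi larvae, against 0.614, 0.067 and 0.609 CPM in Mef2>+ larvae (log2 fold change 4.98, adjusted p = 0.0032). Reads that fit both genes are not in the counts of either. Jon66Ci was at 9.21, 3.32 and 8.31 CPM in white RNAi larvae, against 0.307, 0.067 and 0.111 CPM in Mef2>+ larvae (log2 fold change 5.34, adjusted p = 0.0018). All 3 were highest in white RNAi replicate 1 and low in each Mef2>+ library.

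The remaining genes of the 5 were Jon65Ai, with 149 counts against 2 (49.7-fold higher, counting interval 13.5 to 414, adjusted p = 0.004), and Jon99Fi, with 83 counts in white RNAi larvae and 0 in Mef2>+ larvae, at least 18.5-fold higher against a floor of 3 counts over the group (adjusted p = 0.025). Limma voom called 2 members of the list. The abundant members behaved otherwise. Jon65Aiv was at 6.51, 139 and 16.7 CPM in white RNAi larvae, against 132, 118 and 35 CPM in Mef2>+ larvae (log2 fold change −0.81, SE 1.22, adjusted p = 0.648), and Jon65Aiii at 3.72, 90.7 and 10.6 CPM in white RNAi larvae, against 114, 103 and 28.4 CPM in Mef2>+ larvae (log2 fold change −1.22, adjusted p = 0.496). White RNAi replicate 2 and Mef2>+ replicates 1 and 2 were high for both, so these genes separated libraries and not genotypes. Over the same 16 genes the list median ran from -2.15 without white RNAi replicate 2 to -0.31 without white RNAi replicate 3, so no single library turned its sign.

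The other gut lists were near the background. Among maltases, amylases and lysozymes 1 of 13 rose and 0 fell (1 and 0 at an unadjusted p of 0.05, and the same with DESeq2 and limma voom). This was the maltase gene Mal-A6, at 7.72, 6.27 and 3.79 CPM in white RNAi larvae, against 1.64, 1.08 and 1.55 CPM in Mef2>+ larvae (log2 fold change 2.05, adjusted p = 0.0034), and the more abundant Mal-A5 did not pass (log2 fold change −0.27). Of 10 other midgut markers only PGRP-LB, an enzyme that degrades bacterial peptidoglycan, passed, at 13.3, 18.4 and 27.2 CPM in white RNAi larvae, against 46.5, 41.6 and 44.6 CPM in Mef2>+ larvae (log2 fold change −1.17, adjusted p = 0.013). This call was lost without white RNAi replicate 1 or 2 and with only the 6 compared libraries in the fit. The midgut myosin gene Myo61F had a log2 fold change of 0.41 and overlapped between genotypes.

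Over all genes, the largest falls by the naming rule were in TwdlP and in CG13230, CG10953, CG11350 and CG15597, whose products have no established role. CG13230 was at 0.047, 0.092 and 0.122 CPM in white RNAi larvae, against 94.4, 90.5 and 40.5 CPM in Mef2>+ larvae (adjusted p = 0.0036). CG10953 was at 0.186, 0.123 and 0.163 CPM in white RNAi larvae, against 40.8, 33.5 and 46.3 CPM in Mef2>+ larvae (adjusted p = 0.0051). White RNAi libraries held almost no reads of either. CG11350 was at 1.35, 1.08 and 0.978 CPM in white RNAi larvae, against 333, 279 and 221 CPM in Mef2>+ larvae (adjusted p = 0.0064). CG15597 was at 0.419, 0.246 and 0.122 CPM in white RNAi larvae, against 68.1, 61.3 and 40.3 CPM in Mef2>+ larvae (adjusted p = 0.0042). All 4 were at 1.35 CPM or less in each white RNAi library and held in every fit that left out 1 library. For TwdlP, CG13230, CG10953 and CG15597, near 0 in every white RNAi library, the direction is not independent of the filter.

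The largest rises were in spok, CG34377, CG14332, CG33333 and CG4362. CG34377 was at 8.88, 0.092 and 11.6 CPM in white RNAi larvae, against 0, 0 and 0 CPM in Mef2>+ larvae, at least 107-fold higher against a floor of 3 counts over the Mef2>+ libraries (adjusted p = 0.038). CG14332 was at 81.7, 0.861 and 45 CPM in white RNAi larvae, against 0.153, 0.135 and 0 CPM in Mef2>+ larvae (log2 fold change 8.72, adjusted p = 0.048). White RNAi replicates 1 and 3 were high and replicate 2 was not. CG33333 was at 89, 0.83 and 56.1 CPM in white RNAi larvae, against 0.153, 0.067 and 0.166 CPM in Mef2>+ larvae (log2 fold change 8.45, adjusted p = 0.029). CG4362, at 42.9, 0.461 and 2.16 CPM in white RNAi larvae, against 0.153, 0.067 and 0.277 CPM in Mef2>+ larvae, rose as well (log2 fold change 6.44, adjusted p = 0.042). In these 4 genes white RNAi replicate 2 was under 1 CPM and white RNAi replicate 1 or 3 carried the level. They and spok were near 0 in every Mef2>+ library, so their direction is not independent of the filter. Each of these 4 calls was lost without white RNAi replicate 1 and without any 1 of the Mef2>+ libraries. Exons of CG34377 and CG33333 overlap antisense RNA genes on the opposite strand.

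A stricter look, chosen after the values were seen, took the genes under 0.5 CPM in every library of one control and above 5 CPM in every library of the other. It found 16 genes near 0 in white RNAi larvae and 2 near 0 in Mef2>+ larvae, spok and Jon99Ciii. The direction at each of these genes follows from that choice and was not tested by it. The 16 included TwdlP and TwdlO, CG13230, CG10953 and CG15597, the ciliary gene Tektin-C, the tyrosine breakdown gene Faa, the glycosyltransferase gene Ugt37c1 and the lectin gene lectin-22C. Side by side in the other genotypes, 14 of the 16 stayed under 2 CPM in all 6 Mef2>Deaf1RNAi and Mef2>Deaf1 libraries. In the library labelled Mef2>Gsk3CA replicate 3, 14 exceeded 5 CPM, whereas 13 were under 1 CPM in replicate 2 of that label. Replicate 1 of that label lay between, with 14 of the 16 above 1 CPM and 4 above 5 CPM. Tektin-C was an exception, at 0.279, 0.185 and 0.0815 CPM in white RNAi larvae and 0.11, 0.063 and 0 CPM in Mef2>Deaf1RNAi larvae, but at 7.62, 7.76 and 11.6 CPM in Mef2>+ larvae and 8.61, 9.03 and 9.06 CPM in Mef2>Deaf1 larvae.

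**Figure D5:**
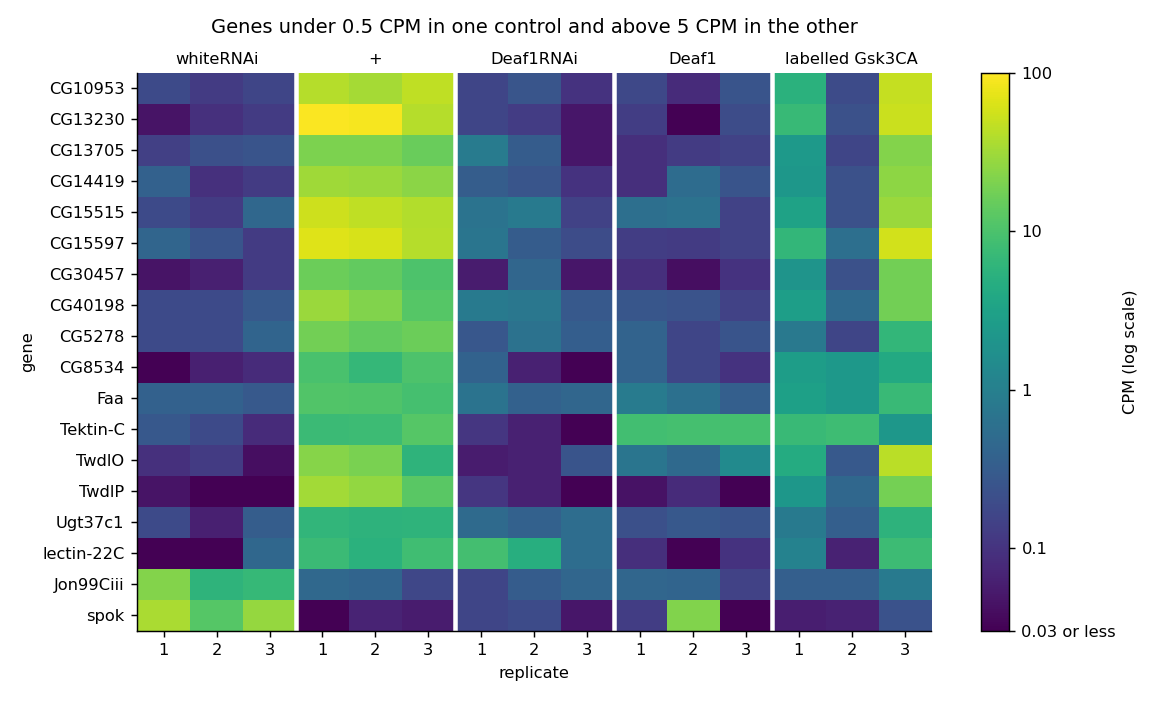
CPM (colour, log scale, 0.03 or less in the darkest shade) of 18 genes (rows) in the 15 libraries (columns, 3 replicates a genotype) for genes under 0.5 CPM in one control and above 5 CPM in the other. Mef2>whiteRNAi is dark and Mef2>+ bright for the upper 16 genes, most of which are also dark in Mef2>Deaf1RNAi and Mef2>Deaf1, and the lower 2, Jon99Ciii and spok, show the opposite.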

How the data were processed

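RNA from filleted larvae was sequenced with a stranded, poly(A)-selected kit as 100 bp read pairs, with 3 replicates for each of 5 genotypes. The authors mapped reads with STAR to genome build BDGP5 and deposited raw counts per gene symbol from HTSeq, unnormalized, 1 file per library; the strand option of counting is not given in the sources used here. Base calling with CASAVA 1.7 is named in the submitters' processing notes. The 5 summary lines of each file (3.36 to 6.75% of entries on no gene among them) were left out of library sizes and tests. Symbols were matched to the BDGP6 annotation for names, arms, exon lengths and overlaps only (97.2% of 15682 matched), so no coordinates are given and no sequences are shown.

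Counts were analysed with edgeR 4.0.16 in R 4.3.3: TMM factors, filterByExpr by genotype (10930 genes), 1 quasi-likelihood model of all 15 libraries with a mean per genotype, two-sided test of Mef2>whiteRNAi minus Mef2>+, and Benjamini-Hochberg adjustment over all genes tested. The fit had 10 residual degrees of freedom. Alternatives used DESeq2 1.42.0, limma 3.58.1 (voom), other scaling factors, other filters, the 6 compared libraries alone, a replicate block and leaving out each of the 6 libraries. Genes named are the stock markers, the 5 largest changes in each direction over all genes (called, average log2 CPM of at least 1, no overlap), and in each list up to 3 called members per direction and the 2 most abundant (1 and 1 in lists outside the main classes); all members of a small count were named as well. These and brp, onecut, Syt1, nvd and RpS14a were taken after their values were seen. The comparison, the gene lists and the genes were chosen with earlier results of these data known. Counting intervals are exact binomial at the 95% level and cover counting error only. Between replicates of a genotype, counts differed by more than sampling noise at all pairs.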

Additional observations from a re-analysis of the deposited data

Results flagged for a closer look

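Both items in this part concern entries outside the counts per gene, where every Mef2>whiteRNAi library exceeded every Mef2>+ library. The share of entries on no gene had a median of 5.52% in white RNAi larvae and 3.68% in Mef2>+ larvae. It was 5.41 to 6.75% in the other 9 libraries, so the Mef2>+ libraries were the low ones of the series. The share of entries aligned to several places had a median of 4.46% in white RNAi larvae and 2.55% in Mef2>+ larvae. Groups of 3 libraries are too small for a test of single outlying values.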

How the results depend on the processing

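Each count was recomputed under 9 alternatives and with each of the 6 libraries left out. The count of 1799 genes fell to 665 with only the 6 compared libraries in the fit and ran from 818 to 2062 over the 6 fits that left out 1 library. Higher genes (689) came to 2043 with library totals, 1078 with DESeq2 and 285 with the 6 libraries, and to 283 to 742 on leaving out 1 library. Lower genes (1110) came to 555 with library totals and 380 with the 6 libraries, and to 530 to 1320 on leaving out 1. Of the 1799 genes, 1729 were also called with RLE factors, 1793 with DESeq2, 1586 with limma voom, 1242 with library totals and 633 with the 6 libraries alone. With the 6 libraries alone the ribosome class had 50 calls (101 in all 15), the muscle class 8 (44) and the hormone synthesis class 5 (9). The hormone synthesis class had 14 calls with library totals, 3 with a minimum of 10 counts in each library and 4 with limma voom, and the gut class (7) had 2 with that minimum and 4 with limma voom. On leaving out 1 library the cuticle class ran from 14 to 44 calls, hormone synthesis from 3 to 8, ribosome from 69 to 99, muscle from 21 to 58 and gut from 5 to 8. The log2 fold change of w stayed between -1.58 and -1.32 and past the threshold throughout. A replicate block gave 1322 calls in all, and the hormone synthesis class then had 5. Same-numbered libraries correlated at 0.18, -0.03 and 0.222 in their deviations from the genotype means. These values are low but do not settle whether same-numbered libraries were handled together. Replicate 3 was the highest library at 26 of 35 sarcomere genes in white RNAi larvae and at 28 in Mef2>+ larvae. At the 12 glycolysis genes it was the highest at 12 and 11. At the 80 cytoplasmic ribosomal protein genes it was the highest at 38 in white RNAi larvae but the lowest at 71 in Mef2>+ larvae. White RNAi replicate 3 alone of the 3 correlated best with its own number. Of the named genes, 4 changed direction under an alternative, and none of these was called: Lcp1 (-0.35 to 0.01 on leaving out 1 library), Cht3 (0.14 with library totals, -0.21 to 0.11 on leaving out 1 library), woc (-0.03 with upper-quartile factors, -0.03 to 0.10 on leaving out 1 library) and Csp (0.10 with library totals). Over the 9 alternatives 124 tests of named genes lost their call and 16 gained one, and over the 6 fits that left out 1 library 202 lost it and 4 gained one.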

Other observations

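Of 116 tested genes in lists of further cell types, 17 passed (14.7%, beside 16.5% of all genes tested), but the share differed by list. It was 41.7% in hemocytes, 38.5% in imaginal discs, 33.3% in glia, 21.4% in fat body and 3.12% in testis. In neurons, salivary gland, trachea and Malpighian tubules it was 0. The lists are small, and single members are given as values. In the fat body list 2 of 14 genes rose and 1 fell. The storage protein gene Lsp1alpha was at 487, 436 and 483 CPM in white RNAi larvae, against 9, 7.76 and 47.2 CPM in Mef2>+ larvae (log2 fold change 4.46, adjusted p = 0.016), and Fbp1, which encodes its receptor, at 5392, 3858 and 2426 CPM in white RNAi larvae, against 780.2, 784 and 1137 CPM in Mef2>+ larvae (log2 fold change 2.11, adjusted p = 0.004). The gluconeogenic enzyme gene Pepck fell (log2 fold change −1.21, adjusted p = 0.041). The call on Lsp1alpha was lost without Mef2>+ replicate 1 or 2, and that on Pepck without white RNAi replicate 1 or 2, or without Mef2>+ replicate 3, and with library totals as the scaling. Of 12 hemocyte genes 3 rose and 2 fell. The phenoloxidases of crystal cells rose, with proPO-A1 at 245, 289 and 351 CPM in white RNAi larvae, against 83.5, 80 and 157 CPM in Mef2>+ larvae (log2 fold change 1.46, adjusted p = 0.0087) and PO45 changed by 1.23 (adjusted p = 0.013), and so did the plasmatocyte receptor gene nimC1 (0.90, adjusted p = 0.0051). The plasmatocyte genes Hml, at 117, 166 and 314 CPM in white RNAi larvae, against 359, 347 and 551 CPM in Mef2>+ larvae, and Pxn fell (log2 fold change −1.07 and −0.50, adjusted p = 0.035 and 0.032). Both falls were lost without white RNAi replicate 1 or 2, without Mef2>+ replicate 1 or 3, with only the 6 compared libraries and with library totals as the scaling, where 5 members were higher and 0 lower. The call on PO45 was lost without Mef2>+ replicate 1 or 2.

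Of 13 imaginal disc genes 5 rose and 0 fell (7 and 0 at an unadjusted p of 0.05, 6 higher with DESeq2 and 5 with limma voom): hh, at 7.25, 7.38 and 6.88 CPM in white RNAi larvae, against 2.25, 1.82 and 4.76 CPM in Mef2>+ larvae (log2 fold change 1.28, adjusted p = 0.033), en (0.93), wg (0.86), ap and ey. The eye gene ey, at 3.86, 0.554 and 3.67 CPM in white RNAi larvae, against 0.307, 0.202 and 0.498 CPM in Mef2>+ larvae (log2 fold change 2.97, adjusted p = 0.032), followed the order of the neuron genes, high in white RNAi replicates 1 and 3. The count was 0 without Mef2>+ replicate 1 or 2, 1 without white RNAi replicate 1 or 2, and 2 without white RNAi replicate 3. In glia 2 of 9 genes rose, Gs2, the glutamine synthetase, at 733, 748 and 385 CPM in white RNAi larvae, against 188, 213 and 175 CPM in Mef2>+ larvae (log2 fold change 1.69, adjusted p = 0.011) and Eaat1 (0.72), and CG16857 fell (−0.59). The call on Eaat1 was lost without white RNAi replicate 1, or without Mef2>+ replicate 1 or 2, and that on CG16857 without white RNAi replicate 1 or 2, or without Mef2>+ replicate 1 or 2 and with library totals as the scaling.

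Testis genes were high in a single Mef2>+ library. The summed level of 35 genes was 19.6, 29.6 and 28 CPM in white RNAi larvae, against 47.8, 37.3 and 252 CPM in Mef2>+ larvae. The median of the 32 tested genes moved from -3.22 with all libraries to -0.14 without Mef2>+ replicate 3, and bol was the 1 of 32 tested genes that passed (log2 fold change −1.30, adjusted p = 0.022, lost without white RNAi replicate 1 or 2, or without Mef2>+ replicate 3). The sex factor genes fru and dsx were called in opposite directions (−1.35 and 0.82 on the log2 scale, adjusted p = 0.036 and 0.038). Both calls were lost without white RNAi replicate 1 or 2, without Mef2>+ replicate 1 or 3, with only the 6 compared libraries and with a replicate block. That on fru was lost with library totals as the scaling, and that on dsx with limma voom and without Mef2>+ replicate 2.

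Among 13 heat shock genes 2 rose, Hsp67Ba at 87.9, 70.3 and 40 CPM in white RNAi larvae, against 20.7, 20 and 10.1 CPM in Mef2>+ larvae (log2 fold change 1.96, adjusted p = 0.015) and Hsp67Bc (1.94, adjusted p = 0.022), while the most abundant, Hsp23, did not pass (log2 fold change 1.02). This share (15.4%) was near that of all genes tested, and 0 members passed without white RNAi replicate 1 or without Mef2>+ replicate 3. The list did lean upward, with 12 of 13 fitted fold changes above 0. At an unadjusted p of 0.05, 6 were higher and 1 lower. Its median of 1.02, beside -0.018 for all genes tested, was 0.53 without Mef2>+ replicate 3. Of 13 antimicrobial peptide genes 2 fell and 0 rose (4 and 0 at an unadjusted p of 0.05, and 2 lower with both DESeq2 and limma voom). The count was 0 without white RNAi replicate 1 or 2, without Mef2>+ replicate 1 or 2, and with a replicate block. Mtk was at 1.16, 1.57 and 2.77 CPM in white RNAi larvae, against 13.5, 12.8 and 5.09 CPM in Mef2>+ larvae (log2 fold change −2.51, adjusted p = 0.027), and AttD had 2 counts in white RNAi larvae and 33 in Mef2>+ larvae, 24.7-fold lower with a counting interval of 6.32 to 213 (adjusted p = 0.033). The abundant dro5 was at 1281, 1021 and 112 CPM in white RNAi larvae, against 432, 421 and 3.21 CPM in Mef2>+ larvae, low in replicate 3 of both genotypes (log2 fold change 1.49). No gene passed in the salivary gland, trachea, Malpighian tubule and histone lists in edgeR's test (0 of 7, 0 of 7, 0 of 9 and 0 of 4). At an unadjusted p of 0.05, 2 tracheal genes were higher and the others had 0, and limma voom called 1 tracheal gene and DESeq2 0 in any of the 4 lists.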
